A study of Homo sapiens with 16 samples.

Results

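SW948 is an established human colorectal cancer cell line, and the 8 libraries described here give its response to itraconazole. They were chosen by line, as 4 libraries of itraconazole-treated cells and 4 of solvent-treated cells, out of 16 libraries in all. The other 8 libraries come from HT55, a further colorectal cancer line that received the same treatments. The cells were grown attached to plastic in medium with foetal bovine serum and antibiotics. Itraconazole was given at 5 µM, its solvent DMSO served as the control, and RNA was taken on day 6. A single line, dose and day were measured, so the values describe this culture and no earlier or later state of it. The methods describe 4 biological replicates per group, but the labels do not say whether the cultures were set up separately. The p-values therefore measure the spread between these samples.

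Itraconazole is an azole antifungal. Azoles bind lanosterol demethylase, encoded by CYP51A1 in human cells, and so act on a late step of sterol synthesis. Cells sense sterol in the membrane of the endoplasmic reticulum: when it is low, the SREBP transcription factors are released from INSIG1, which holds them there, are cut by proteases in the Golgi and switch on genes of sterol synthesis and uptake. Itraconazole has also been described as an inhibitor of Hedgehog signalling, of cholesterol traffic out of the lysosome and of mTOR signalling. In colorectal cancer the Wnt pathway is commonly switched on and maintains stem-like cells, while E2F transcription factors drive the genes of DNA replication ahead of S phase. The study asked which genes respond to the drug in lines whose growth it slows.

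The cells carried the markers of colon epithelium, since 12 of 12 epithelial marker genes, EPCAM, CDH1 and CDX2 among them, passed the filter on low counts. Their summed share of the gene counts ran from 0.89 to 0.928% under DMSO and from 0.943 to 1.05% under itraconazole. Of 8 leukocyte markers, PTPRC, CD3E and MS4A1 had 0 counts in every library, and CD68 and CD79A, which rose, and LYZ, which fell, were those that passed the filter. Their summed share ran from 0.0365 to 0.0433% under DMSO and from 0.0184 to 0.0221% under itraconazole. Of 9 fibroblast and muscle markers 1 passed, COL1A1, with a log2 fold change of 1.65, while COL3A1 was at 0 in every library, and their summed share was 0.000567% and 0.00121% on average. None of the 5 endothelial markers in the tables passed the filter. The treated libraries differed from the controls in their make-up. Reads with more than 1 alignment took 22.8 ± 0.734% under DMSO and 26.0 ± 0.452% under itraconazole, mitochondrial genes took 1.22 ± 0.194% and 2.47 ± 0.393% of gene counts, and the 20 most abundant genes took 5.50 ± 0.171% and 7.99 ± 0.604% (SD, n = 4). Each of these measures did not overlap between the groups (p = 0.0286 by exact permutation, two-sided, which is the lowest p that 4 against 4 libraries allow, and 0.0458 after adjustment over 8 measures). Without the 20 most abundant and the mitochondrial genes 9992 genes were called, against 10030 with them, and the part of the reads with more than 1 alignment was not tested. Gene counts ran from 9002751 to 11110814 under DMSO and from 8735044 to 10310379 under itraconazole. On the first principal component, which held 90.8% of the variance, the treated libraries lay at 49.5, 71.5, 75.3 and 62.1 in the order of their replicate numbers and the controls between -65.3 and -63.2, so treated replicate 1 was the nearest to the controls.

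Most genes of SW948 passed the test, so a call on its own says little here. Of 12505 genes tested, 80.2% changed at an adjusted p under 0.05, 38.9% upward and 41.3% downward. In 74.4% of the genes all 4 treated libraries lay beyond all 4 controls, on the one side or the other. Changes of at least 2-fold were rarer, with 13.3% of genes raised and 18.7% lowered by that much. At least 4-fold, 424 genes rose and 813 fell, and at least 16-fold the counts were 55 and 86. How many genes rose and how many fell varied with the scaling between libraries. With TMM factors, which assume that most genes do not change, 4865 genes rose and 5165 fell, while on plain library totals 3145 rose and 6832 fell. The median log2 fold change of all genes was -0.02 with TMM factors and fell by 0.33 on the log2 scale on plain totals. The gene groups below are therefore read against the median of all genes. For 15 gene lists with more rises than falls by TMM this was no longer so on plain totals, and for 11 lists the median took the other sign, so values on plain totals are given beside such lists where they are described. In bulk RNA, fewer cells of one kind and less RNA per cell cannot be told apart. Levels are given in CPM, the gene counts scaled to a common library total by the TMM-adjusted sizes, and each fold change is the edgeR estimate on the log2 scale, with its standard error (SE) after the ± sign.

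**Figure D1:**
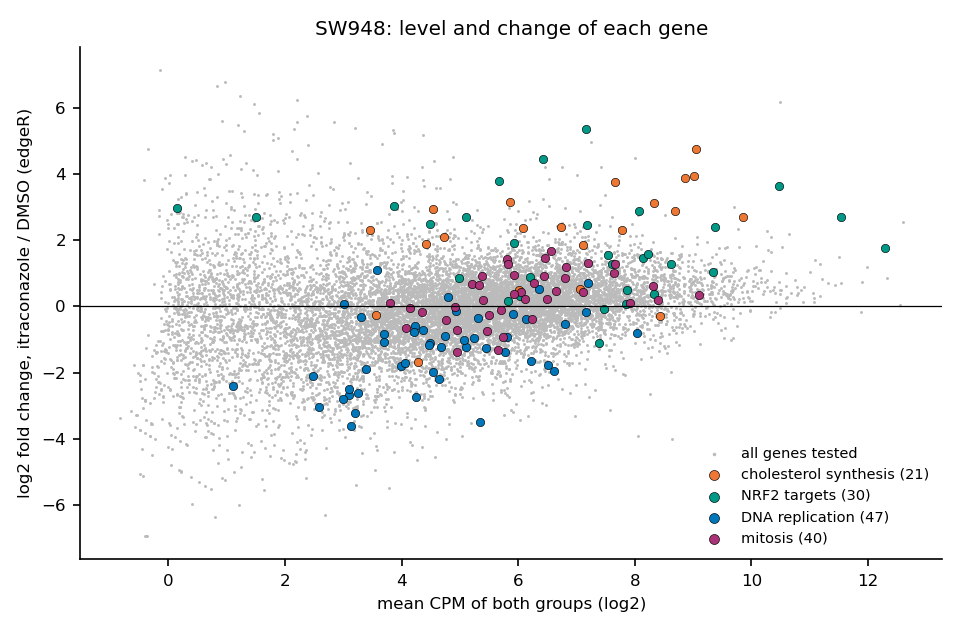
Each point is 1 of the 12505 genes tested in SW948, of which nearly all those without a symbol are not drawn. The horizontal axis is the mean CPM of both groups on a log2 scale, and the vertical axis is the log2 fold change of itraconazole over DMSO. Coloured points are members of 4 gene groups: cholesterol synthesis lies mostly high above 0 (median 2.36), NRF2 targets also (1.67), DNA replication lies below 0 (-1.15), and mitosis lies on both sides (0.37).

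The gene that rose most among protein-coding genes of at least 10 CPM was INSIG1 (chromosome 7, 155089486 to 155101945, plus strand, GRCh37), the sterol-dependent anchor of SREBP. INSIG1 stood at 34.3, 35.8, 52.2 and 34.6 CPM in the DMSO libraries and at 1803, 3321, 3443 and 2782 CPM in the itraconazole libraries. Every treated library was far above every control, and treated replicate 1 was the lowest of its group. The log2 fold change was 6.18 ± 0.22 (adjusted p by edgeR = 4.31e-11), which is 72.3-fold.

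The enzymes of cholesterol synthesis moved with it. Of 21 enzymes tested 18 rose and 2 fell, and by at least 2-fold 16 rose and 1 fell. Their median log2 fold change was 2.36. Their summed share of the gene counts was 0.159 ± 0.0108% under DMSO and 0.695 ± 0.0486% under itraconazole (SD, n = 4). MSMO1 (chromosome 4, 166248819 to 166264316, plus strand), the methyl sterol oxidase that acts soon after CYP51A1, changed most. MSMO1 stood at 37.1, 38.2, 39.6 and 35 CPM in the DMSO libraries and at 765, 1144, 1201 and 968 CPM in the itraconazole libraries. The groups were far apart, with a log2 fold change of 4.77 ± 0.13 (adjusted p by edgeR = 1.1e-11). HMGCS1, which makes HMG-CoA, and SQLE, the squalene epoxidase, had log2 fold changes of 3.94 ± 0.1 and 3.87 ± 0.12. IDI1, which isomerises isopentenyl diphosphate, had 3.77 on the same scale, MVD, the mevalonate diphosphate decarboxylase, 3.15, DHCR7, of the last step to cholesterol, 3.13, and FDFT1, the squalene synthase, 2.7. The azole target itself took part. CYP51A1 stood at 5.32, 5.26, 6.68 and 4.37 CPM in the DMSO libraries and at 34.5, 46, 46.2 and 38.5 CPM in the itraconazole libraries. It thus rose in every treated library, by 2.93 ± 0.14 on the log2 scale.

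Phosphomevalonate kinase, PMVK, stood against the rest of its pathway. PMVK stood at 29.7, 26.7, 32.3 and 29.7 CPM in the DMSO libraries and at 9.73, 8.19, 9.43 and 9.46 CPM in the itraconazole libraries. The groups did not overlap, and the log2 fold change was -1.68 ± 0.1 (adjusted p by edgeR = 3.4e-09). LBR, which can serve as a sterol reductase besides its role in the nuclear envelope, also fell, with a log2 fold change of -0.3. TM7SF2, the reductase that shares this step with LBR, had a value of -0.25 and did not pass, but it passed on plain totals (-0.58), with GC and length offsets (-0.44), without DMSO replicate 2 (-0.32) and without itraconazole replicate 4 (-0.34). In HT55 the median of the same 21 enzymes was 0.72.

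Genes of sterol sensing, uptake and transport were more mixed. Of 18 tested, 12 rose and 4 fell, 9 and 1 of them by at least 2-fold, and the median was 0.90. NPC1 and its soluble partner NPC2 carry cholesterol out of the lysosome. NPC1 stood at 48, 53.4, 53.3 and 49.4 CPM in the DMSO libraries and at 237, 304, 333 and 261 CPM in the itraconazole libraries. It rose by 2.47 ± 0.1 on the log2 scale, and NPC2 by 2.02 ± 0.097. STARD4, a carrier of sterol between membranes, rose by 2.8. NPC1L1, the intestinal importer of dietary cholesterol, had 3 counts over the 4 control libraries and 182 over the 4 treated libraries. Its fitted log2 fold change was 6.11 with all libraries and 7.05 without DMSO replicate 2, and with so few control counts it serves only as a sign of direction. The Golgi proteases that release SREBP moved the other way. MBTPS2 stood at 37.6, 37.7, 34.6 and 35.9 CPM in the DMSO libraries and at 12.3, 9.91, 7.07 and 9.81 CPM in the itraconazole libraries. MBTPS2 fell, with a log2 fold change of -1.88 ± 0.13 (adjusted p by edgeR = 7.88e-09), MBTPS1 had -0.75 and the escort protein SCAP had -0.56. SREBF2, which encodes the SREBP of sterol synthesis, rose by 1.58.

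Promoters of these genes were searched for the letters of factor motifs in RefSeq windows of 300 bases, from 250 before to 50 after the start of the gene (GRCh38.p14), on both strands. The SREBP motif TCACNCCAC stood in 1.15% of all 27193 promoters, in 0 of 16 cholesterol synthesis promoters and in 1 of 14 promoters of sterol sensing genes, that of SREBF2. The CCAAT motif stood in 35.7% of all promoters, in 37.2% of those of genes tested and in 12 of 16 (75.0%) of cholesterol synthesis. A match of this kind is a description of letters and not a site of binding. The sequences are shown for SREBF2 (chr22:41832855-41833154, plus strand), with its SREBP motif in capitals, and for the enzymes MSMO1 (chr4:165327419-165327718, plus strand) and HMGCS1 (chr5:43313363-43313662, minus strand), with CCAAT or its reverse complement ATTGG in capitals, as the rising genes that show each motif. All are written 5′ to 3′ on the strand of the gene.
SREBF2: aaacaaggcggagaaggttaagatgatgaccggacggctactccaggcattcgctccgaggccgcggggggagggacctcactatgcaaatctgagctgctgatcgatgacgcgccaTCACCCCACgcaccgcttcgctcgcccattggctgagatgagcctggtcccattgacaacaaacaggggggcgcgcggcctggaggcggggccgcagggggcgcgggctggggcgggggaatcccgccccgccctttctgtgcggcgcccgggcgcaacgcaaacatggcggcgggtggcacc
MSMO1: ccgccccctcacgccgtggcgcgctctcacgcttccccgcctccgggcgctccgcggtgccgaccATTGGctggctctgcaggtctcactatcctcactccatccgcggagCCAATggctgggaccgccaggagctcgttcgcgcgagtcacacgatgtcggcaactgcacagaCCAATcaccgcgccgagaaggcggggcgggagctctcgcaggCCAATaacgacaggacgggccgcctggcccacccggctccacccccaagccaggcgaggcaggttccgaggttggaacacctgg
HMGCS1: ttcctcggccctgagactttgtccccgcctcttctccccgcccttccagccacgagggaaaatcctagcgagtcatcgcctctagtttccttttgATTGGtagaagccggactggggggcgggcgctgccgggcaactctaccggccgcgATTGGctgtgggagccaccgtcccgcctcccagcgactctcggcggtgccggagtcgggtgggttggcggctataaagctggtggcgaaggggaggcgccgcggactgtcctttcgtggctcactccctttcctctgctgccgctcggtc

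**Figure D2:**
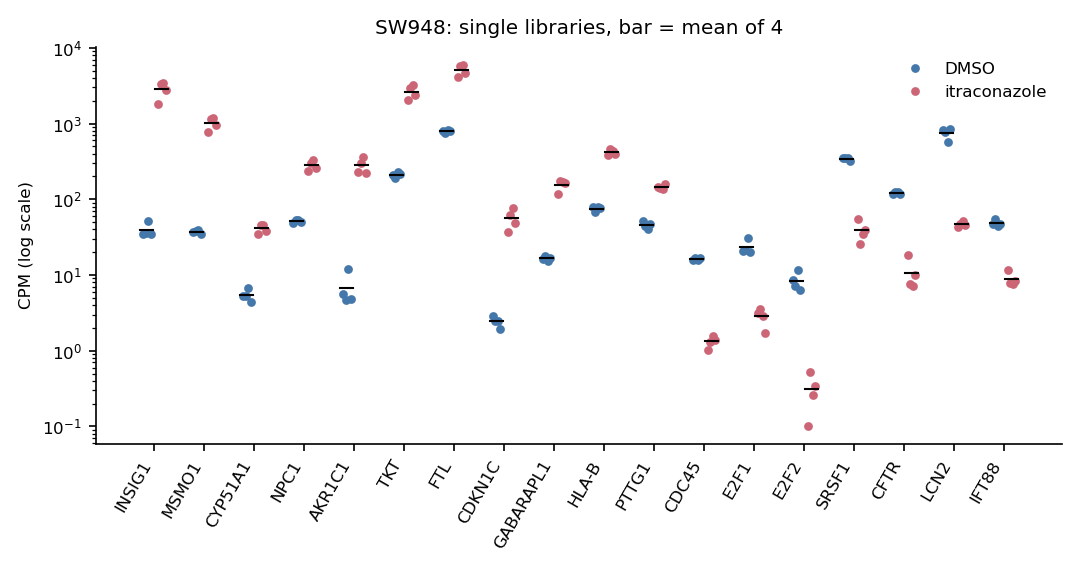
Single libraries of SW948 for 18 genes, 4 under DMSO and 4 under itraconazole, in CPM on a log axis, with a bar at each mean. INSIG1 lies between 34.3 and 52.2 CPM in the controls and between 1803 and 3443 CPM in the treated libraries, while CDC45 lies between 15.6 and 16.9 and between 1.02 and 1.57. The 18 genes were picked for display. In none of them do the groups overlap, which also held for 74.4% of all genes tested.

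Fatty acid synthesis genes, which the same transcription factor family drives, rose in 14 of 16 cases and fell in 2. At least 2-fold rises were 11 and falls 0, and the median was 1.44. ACSS2, which makes acetyl-CoA from acetate, rose by 2.76 ± 0.095 on the log2 scale. The lipid droplet protein PNPLA3 rose by 3.42, from 9 counts over the controls, the desaturases FADS2 and SCD by 2.61 and 2.34, and the fatty acid synthase FASN by 1.6. ACACB, the mitochondrial acetyl-CoA carboxylase, fell, with a log2 fold change of -0.88. ELOVL6, an elongase, had -0.35, which no longer passed without DMSO replicate 2 (-0.33), itraconazole replicate 2 (-0.26) or itraconazole replicate 3 (-0.27), nor with GC and length offsets (-0.26), alone or with the replicate block (-0.28). Targets of LXR, the receptor for oxysterols that drives cholesterol efflux, showed no common direction, with 4 of 9 raised, 5 lowered and a median of -0.38. The lipoprotein gene APOE rose by 2.14, while NR1H3, which encodes LXR-alpha, had -0.79 and the lysophospholipid acyltransferase gene LPCAT3 -1.87.

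Targets of NRF2, the transcription factor that answers oxidants and electrophiles, formed the other large group of rises. Of 30 listed genes tested, the NRF2 gene NFE2L2 and its inhibitor gene KEAP1 among them, 26 rose and 1 fell. By at least 2-fold 21 rose and 1 fell, and the median was 1.67. Their share of the gene counts went from 0.685 ± 0.0242% to 1.98 ± 0.356% (SD, n = 4). Aldo-keto reductases led. AKR1C1 stood at 5.57, 4.66, 12.1 and 4.86 CPM in the DMSO libraries and at 226, 304, 366 and 222 CPM in the itraconazole libraries. All treated libraries were above all controls, and DMSO replicate 3 was the highest control. AKR1C1 rose by 5.36 ± 0.25 on the log2 scale (adjusted p by edgeR = 3.29e-10), AKR1B10 by 4.44 and AKR1C2 by 3.79; the AKR1C genes are near-identical copies, and reads that align to several of them were set aside, so their single values are uncertain. TKT, the transketolase of the pentose phosphate pathway, is abundant and rose as well. TKT stood at 210, 192, 226 and 214 CPM in the DMSO libraries and at 2024, 2936, 3259.7 and 2354 CPM in the itraconazole libraries. This is a log2 fold change of 3.65 ± 0.14. The thioredoxin reductase TXNRD1 rose by 2.39, the haem oxygenase HMOX1 by 3.02 and the glutathione synthesis gene GCLM by 1.93. NFE2L2, which encodes NRF2, had a value of 0.079 (adjusted p by edgeR = 0.411) and its inhibitor KEAP1 0.16, and neither passed; on plain totals they were -0.26, which passed, and -0.17. KEAP1 did pass, at 0.16 to 0.21, with DESeq2 size factors, the replicate block, 1 fit on all 16 libraries and without DMSO replicate 3 or itraconazole replicate 4, and NFE2L2 at 0.17 without itraconazole replicate 1. The drug pump gene ABCC3 was the member that fell, with a log2 fold change of -1.11. The core motif of the antioxidant response element, TGACNNNGC, stood in 6 of 21 promoters of this list (28.6%), in 15.1% of those of all genes tested and in 13.6% of all promoters.

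Iron storage genes belonged to the same group. FTL stood at 806, 747, 813 and 799 CPM in the DMSO libraries and at 4135, 5730, 5921 and 4709 CPM in the itraconazole libraries. FTL, the ferritin light chain, rose by 2.69 ± 0.11 on the log2 scale in non-overlapping groups. FTH1, the heavy chain, went from 2256 ± 72.3 to 7729.9 ± 2819.6 CPM (SD, n = 4), with a log2 fold change of 1.78 ± 0.19. Both were among the 5 genes with the largest gain in CPM, next to the mitochondrial ribosomal RNA MT-RNR2 and the translation elongation factors EEF2 and EEF1A1, with log2 fold changes of 1.19 and 0.85.

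Metallothioneins, small proteins that bind zinc and copper, were scarce in the controls. MT2A stood at 1.01, 0.496, 0.541 and 0.809 CPM in the DMSO libraries and at 7.27, 33.9, 52.5 and 19.8 CPM in the itraconazole libraries. Every treated library was above every control, although the treated libraries spanned a wide range and replicate 1 was the lowest. MT2A rose by 5.24 ± 0.61 on the log2 scale (adjusted p by edgeR = 2.18e-06) and MT1X by 4.33 ± 0.62. MT1E had 1 count in all the controls together and 124 counts with itraconazole. MT1G, below the filter, had 2 counts in the controls together and 110 with itraconazole (p = 0.0286 by exact permutation, two-sided, or 0.166 adjusted over 128 such genes). The zinc exporter SLC30A1 rose by 1.86. Over the whole list of metallothioneins and zinc transporters 9 of 15 rose and 3 fell, and its median of 0.27 was -0.060 on plain totals. Among drug metabolism genes, the aryl hydrocarbon receptor target CYP1A1 rose by 3.14 ± 0.27, the xenobiotic receptor gene NR1I2 by 1.67, and CYP3A5 fell, with a log2 fold change of -2.01.

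Transcripts of mitochondrial DNA were unequal in their change. Of 13 protein-coding genes 8 rose and 1 fell, with a median of 0.73. MT-ND5, a subunit of complex I, rose by 1.71 ± 0.15 on the log2 scale, and MT-CO1, of complex IV, by 1.28. MT-CYB stood at 1361, 1128, 892 and 977 CPM in the DMSO libraries and at 897, 391, 410.4 and 557 CPM in the itraconazole libraries. MT-CYB, of complex III, was the member that fell, with a log2 fold change of -0.95 ± 0.22 (adjusted p by edgeR = 0.00108), although treated replicate 1 stood above the lowest control. The ribosomal RNA MT-RNR2 had the largest gain in CPM of all genes. MT-RNR2 stood at 2183, 1777, 1571 and 1695 CPM in the DMSO libraries and at 9978, 9961, 11958 and 10520 CPM in the itraconazole libraries. It rose by 2.55 ± 0.11 in groups that did not overlap. Among 74 nuclear genes of the respiratory chain 34 rose, 24 fell and the median was 0.00, with 4 raised and 0 lowered by at least 2-fold, while on plain totals 20 rose, 41 fell and the median was -0.33. NDUFA1, of complex I, and UQCRC2, of complex III, rose by 1.2 and 1.16, while SDHC, of complex II, had -0.95.

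Cytosolic ribosomal protein genes moved little but together, with 67 of 77 raised and 2 lowered, 1 of them changed by at least 2-fold and a median of 0.48. On plain totals the median was 0.14, with 38 raised and 13 lowered. Genes of ribosome biogenesis showed 9 of 40 raised and 23 lowered, with a median of -0.34. MRTO4, an assembly factor of the large subunit, and POLR1A, the largest subunit of RNA polymerase I, fell, with log2 fold changes of -2.1 and -1.89, and the snoRNP protein gene NOP56 had -1.71. TAF1D, which belongs to the initiation factor of RNA polymerase I, moved against them. TAF1D stood at 99.1, 99.6, 78 and 102 CPM in the DMSO libraries and at 502, 715, 702 and 647 CPM in the itraconazole libraries. It rose by 2.76 ± 0.12 on the log2 scale in every treated library.

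**Figure D3:**
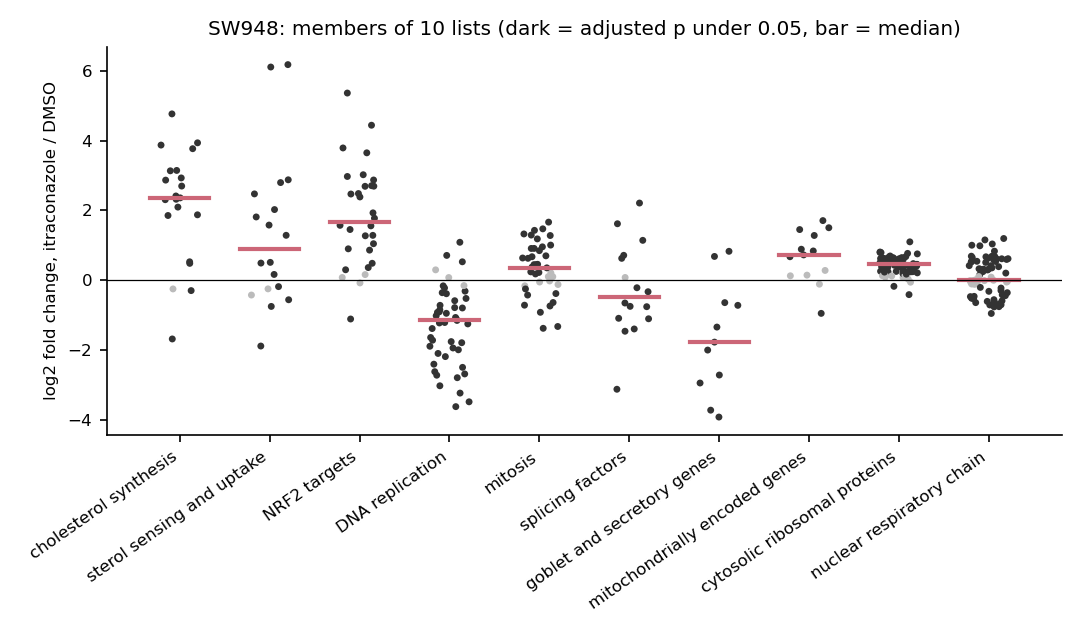
Log2 fold changes (itraconazole over DMSO) of the single members of 10 gene groups in SW948, with dark points for an adjusted p under 0.05, pale points for the others and a bar at the median. The medians run from 2.36 for cholesterol synthesis to -1.77 for goblet and secretory genes, and the ribosomal protein points lie in a narrow band around 0.48.

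Genes of DNA replication fell as a group. Of 47 tested, 41 fell and 3 rose, 27 and 1 of them by at least 2-fold, and the median was -1.15. Their share of the gene counts was 0.273 ± 0.00891% under DMSO and 0.126 ± 0.00298% under itraconazole (SD, n = 4). CDC45, which with the GINS complex is part of the active replicative helicase, fell most. CDC45 stood at 15.6, 16.9, 15.6 and 16.9 CPM in the DMSO libraries and at 1.02, 1.32, 1.57 and 1.38 CPM in the itraconazole libraries. The groups were far apart, with a log2 fold change of -3.62 ± 0.16 (adjusted p by edgeR = 1.68e-10). GINS2 fell by 3.23 on the log2 scale, the checkpoint mediator CLSPN had -3.02, the polymerase alpha gene POLA1 had -2.72, the helicase subunit gene MCM3 had -1.94 and the sliding clamp gene PCNA had -1.38 on the same scale. The members that rose were CCNE1, the cyclin of S phase entry, by 1.09 ± 0.19, the single-strand binding subunit gene RPA1 by 0.71 and the clamp loader subunit gene RFC1 by 0.53.

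Both E2F factors described here, which act on these genes, were lower. E2F2 stood at 8.53, 7.24, 11.6 and 6.39 CPM in the DMSO libraries and at 0.102, 0.528, 0.262 and 0.346 CPM in the itraconazole libraries. E2F2 fell, with a log2 fold change of -4.77 ± 0.36 and was close to absent in the treated libraries. E2F1 stood at 20.9, 21.4, 30.5 and 20.2 CPM in the DMSO libraries and at 3.17, 3.57, 2.88 and 1.73 CPM in the itraconazole libraries. E2F1 fell by 3.03 ± 0.2 on the log2 scale, and RBL1, the pocket protein p107, had -2.75. The cell cycle inhibitor gene CDKN2A rose by 1.03, and CDK4 fell, with a log2 fold change of -1.34. Among 24 genes of G1 control and CDK inhibition, 9 rose and 11 fell, with a median near 0.

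The E2F motif, TTTCCCGC or TTTGGCGC, stood in 17 of 39 promoters of DNA replication genes (43.6%), in 3.78% of those of all genes tested, in 2.32% of all promoters and in 2 of 33 promoters of mitosis genes (6.06%). The CCAAT motif stood in 25 of 33 mitosis promoters (75.8%) and in 22 of 39 replication promoters (56.4%). The windows of GINS2 (chr16:85688905-85689204, minus strand), CLSPN (chr1:35769929-35770228, minus strand) and POLA1 (chrX:24693668-24693967, plus strand) are shown as replication genes with the E2F motif or its reverse complement in capitals, and that of PTTG1 (chr5:160421605-160421904, plus strand) as a mitotic gene with CCAAT or ATTGG in capitals.
GINS2: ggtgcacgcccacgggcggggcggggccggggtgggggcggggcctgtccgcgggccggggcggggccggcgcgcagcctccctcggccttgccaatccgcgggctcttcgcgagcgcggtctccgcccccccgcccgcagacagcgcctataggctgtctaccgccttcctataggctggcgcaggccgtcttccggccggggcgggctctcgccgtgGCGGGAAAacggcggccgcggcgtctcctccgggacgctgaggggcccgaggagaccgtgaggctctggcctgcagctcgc
CLSPN: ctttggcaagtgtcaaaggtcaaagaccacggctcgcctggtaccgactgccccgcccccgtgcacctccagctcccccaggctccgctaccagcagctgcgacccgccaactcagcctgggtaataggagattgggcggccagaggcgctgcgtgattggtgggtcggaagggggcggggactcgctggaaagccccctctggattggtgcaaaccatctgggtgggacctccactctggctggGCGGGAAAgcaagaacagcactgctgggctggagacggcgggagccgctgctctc
POLA1: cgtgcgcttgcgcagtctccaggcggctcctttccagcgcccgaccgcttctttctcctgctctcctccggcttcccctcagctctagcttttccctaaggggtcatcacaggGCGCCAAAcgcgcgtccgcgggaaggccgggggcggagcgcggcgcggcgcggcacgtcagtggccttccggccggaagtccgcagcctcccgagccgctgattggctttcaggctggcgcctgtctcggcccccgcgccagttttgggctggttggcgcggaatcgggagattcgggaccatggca
PTTG1: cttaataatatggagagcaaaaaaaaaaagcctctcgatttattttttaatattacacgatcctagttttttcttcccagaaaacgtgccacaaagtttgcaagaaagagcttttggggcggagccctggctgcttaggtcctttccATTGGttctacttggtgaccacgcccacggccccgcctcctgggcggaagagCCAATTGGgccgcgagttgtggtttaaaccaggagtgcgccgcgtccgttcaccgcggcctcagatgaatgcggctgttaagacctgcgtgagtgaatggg

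Genes of mitosis did not follow those of replication. Of 40 tested, 24 rose and 9 fell, 8 and 2 of them by at least 2-fold, with a median of 0.37. On plain totals the median was 0.04, with 16 raised and 14 lowered. PTTG1, the securin that holds back the separation of chromatids, rose most. PTTG1 stood at 50.9, 43.8, 40.2 and 47.3 CPM in the DMSO libraries and at 144, 139, 137 and 159 CPM in the itraconazole libraries. The groups did not overlap, and the log2 fold change was 1.67 ± 0.081 (adjusted p by edgeR = 4.67e-10). CDC20, which activates the anaphase-promoting complex, rose by 1.47 ± 0.069, and the mitotic cyclin gene CCNA2 by 1.43 ± 0.091. The proliferation marker MKI67 was lower in each treated library than in any control. MKI67 stood at 64.8, 76.4, 70.03 and 69 CPM in the DMSO libraries and at 45.6, 30.4, 34 and 37.5 CPM in the itraconazole libraries. Its log2 fold change was -0.92 ± 0.11, and those of FOXM1, a transcription factor of G2 genes, and CENPE, a kinetochore motor, were -1.32 and -1.38. In HT55 the median of the mitosis list was -0.31, and PTTG1, CDC20 and CCNA2 had log2 fold changes of 0.11, 0.11 and -0.19. The difference between the lines passed the interaction test for PTTG1 at 1.58 (edgeR adjusted p = 2.99e-06), for CDC20 at 1.39 (edgeR adjusted p = 4.82e-05) and for CCNA2 at 1.65 (edgeR adjusted p = 1.04e-07).

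**Figure D4:**
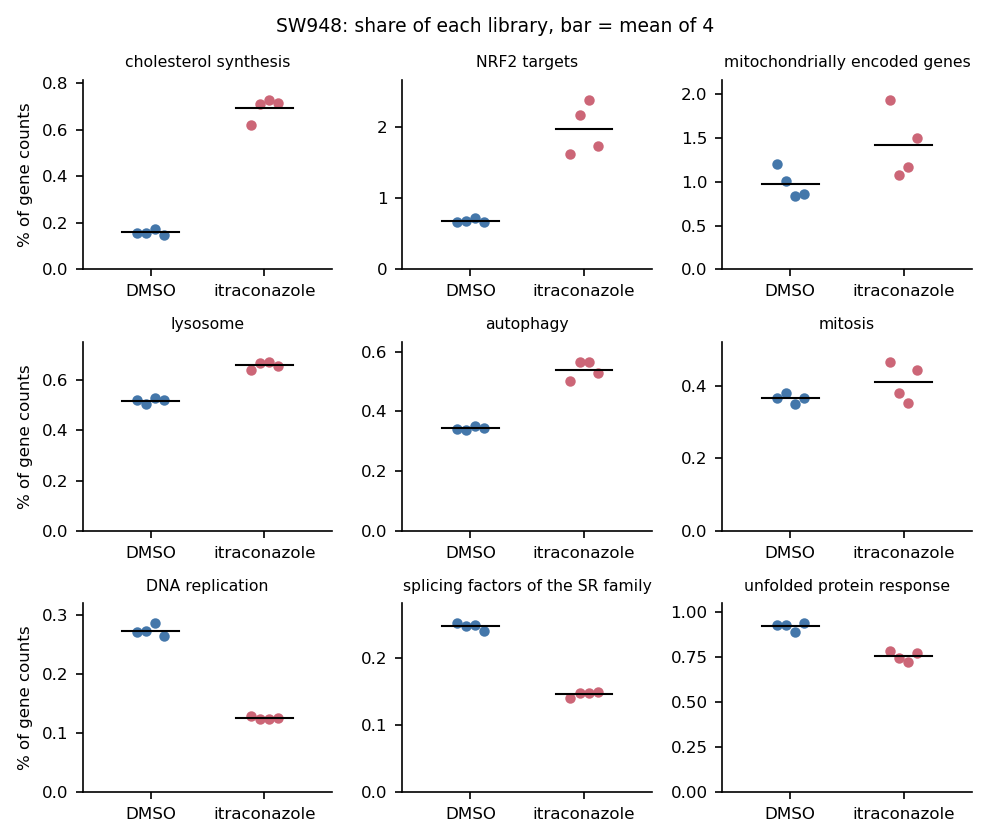
Share of each SW948 library's gene counts, in percent, held by the summed members of 9 gene groups, with a point per library and a bar at the mean of 4. Cholesterol synthesis goes from 0.159 to 0.695% and DNA replication from 0.273 to 0.126%, both without overlap, while mitosis (0.366 and 0.411%) and the mitochondrially encoded genes (0.976 and 1.42%) overlap between the groups.

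Genes tied to p53 and to senescence, a lasting arrest with secretion of signalling proteins, were mixed in the former. In the latter, more of those tested rose than fell. Of 20 p53 targets 9 rose and 6 fell, with a median of 0.22 that was -0.11 on plain totals. The quinone oxidoreductase homologue TP53I3 fell, with a log2 fold change of -2.54 ± 0.18, and the pro-apoptotic gene BBC3 rose by 1.35. Of 32 senescence markers and secreted factors listed, 22 passed the filter, and of these 13 rose and 7 fell, with a median of 0.73. Among those below the filter, IL6, CCL2 and IGFBP7 had 0 counts in every library. PLAU, the urokinase protease, rose by 3.37 ± 0.19, its receptor PLAUR by 1.86 and the protease inhibitor TIMP2 by 2.98. LMNB1, the lamin whose loss accompanies senescence, had a value of 0.074 that did not pass (adjusted p by edgeR = 0.444) and was -0.25 on plain totals. The chemokine gene CXCL2 and the collagenase gene MMP1 fell, with log2 fold changes of -2.21 and -2.09. IL1B, below the filter, had 21 counts in the controls together and 1 with itraconazole (p = 0.0286 by exact permutation, two-sided, or 0.166 adjusted over 128 genes).

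Wnt targets showed 9 of 25 raised and 13 lowered, 3 and 6 by at least 2-fold, with a median of -0.19. The Wnt antagonist gene DKK4 and the co-receptor gene TDGF1 fell, with log2 fold changes of -2.59 ± 0.41 and -2.05 ± 0.12. The homeobox gene PROX1 rose by 1.74, as did the antagonist genes DKK1, by 1.42, and KREMEN1, by 1.17. Of the Hedgehog genes 9 of 19 passed the filter, 1 rose and 6 fell, and the median was -0.62. The ligand gene SHH went from 27.5 ± 5.23 to 4.75 ± 1.29 CPM (SD, n = 4), with a log2 fold change of -2.51 ± 0.18. DISP1, which releases the ligand from cells, fell by 2.65 on the log2 scale, and STK36, a kinase that acts on GLI factors, had -2.12. CDON, a co-receptor, had 0.45, which was 0.12 and did not pass on plain totals.

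Hedgehog signals run through the primary cilium, and genes of its transport system were lower. The intraflagellar transport genes, a family chosen after its values were seen and given as a description, showed 13 of 15 lowered and 0 raised, 9 of them lowered by at least 2-fold, with a median of -1.21. IFT88 stood at 47, 55.5, 44.9 and 46.6 CPM in the DMSO libraries and at 11.7, 7.92, 7.6 and 8.31 CPM in the itraconazole libraries. IFT88, of the complex that carries cargo towards the tip, fell, with a log2 fold change of -2.43 ± 0.13 in groups that did not overlap, IFT22 had -3.04 and IFT80 had -2.84. The same machinery holds the gene that fell most in the whole table by the naming rule, TTC30A. TTC30A stood at 13.1, 14, 12.7 and 11.4 CPM in the DMSO libraries and at 0.205, 0, 0 and 0.346 CPM in the itraconazole libraries. Summed over libraries this was 578 control counts and 5 treated counts, and its log2 fold change of -6.31 was -7.11 without itraconazole replicate 4. TTC26, another component, fell by 4.41 ± 0.19 on the log2 scale.

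Markers of differentiated colon cells fell on balance in the goblet list and held both rises and falls in the absorptive list. Of 25 goblet and secretory genes found, 11 passed the filter on low counts. Of these 9 were lowered and 2 raised, 7 of the lowered ones by at least 2-fold, with a median of -1.77. The summed share of all 25 went from 0.0811 ± 0.00844% to 0.0131 ± 0.00141% of the counts (SD, n = 4). A summed share follows its most abundant members, and not all of these are named here. ST6GALNAC1, which adds sialic acid to mucins, fell, with a log2 fold change of -3.72 ± 0.22, and the trefoil peptide gene TFF3 had -2.94 ± 0.18. BCAS1, 1 of the 2 that rose, did so by 0.83, a value that was 0.50 and did not pass on plain totals. The other raised gene is not named here, and 1 gene of the list was still raised on plain totals. Absorptive genes showed 9 of 21 raised and 10 lowered, with a median of -0.27 that was 0.12 without DMSO replicate 3. On plain totals 8 rose, 10 fell and the median was -0.60. The summed share of all 34 absorptive genes found went up, from 0.317 ± 0.00497% to 0.363 ± 0.0151% (SD, n = 4). Here too the share follows the most abundant members. ALPI, the intestinal alkaline phosphatase, and the peptidase gene ANPEP rose by 2.12 and 1.91, from 60 and 20 counts over the controls. FABP2, the intestinal fatty acid binding protein, fell, with a log2 fold change of -3.65 ± 0.23. In HT55 the median of the absorptive list was 0.82.

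Some single channel and junction genes of the epithelium changed by more than 4-fold. CFTR stood at 116, 123, 124 and 116 CPM in the DMSO libraries and at 18.4, 7.66, 7.07 and 9.92 CPM in the itraconazole libraries. CFTR, the chloride channel of the crypt, fell, with a log2 fold change of -3.44 ± 0.19 (adjusted p by edgeR = 1.78e-09). CLDN2 stood at 104, 98, 132 and 104 CPM in the DMSO libraries and at 24.4, 5.42, 6.02 and 10.3 CPM in the itraconazole libraries. CLDN2, a claudin that forms pores, fell by 3.19 on the log2 scale, and its value was -3.88 without itraconazole replicate 1, which was the highest treated library. CLDN1 fell by 2.48 on the log2 scale, while CLDN4 and CLDN3 rose by 1.83 and 1.56. Over all 26 junction genes 15 rose and 7 fell, with a median of 0.36, and plain totals gave 11 raised, 11 lowered and a median of 0.032. Among laminins and integrins 8 of 18 rose and 8 fell, and the median of 0.08 was -0.24 on plain totals; the laminin chains LAMB1 and LAMB3 rose by 1.77 and 1.62, and COL17A1, of the hemidesmosome, fell, with a log2 fold change of -1.91.

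Autophagy genes rose in 20 of 34 cases and fell in 9, with a median of 0.38, but plain totals gave 14 raised, 14 lowered and a median of 0.051. GABARAPL1, a ubiquitin-like protein of the autophagosome membrane, rose most. GABARAPL1 stood at 16.3, 18, 15.1 and 16.8 CPM in the DMSO libraries and at 118, 172, 170 and 162 CPM in the itraconazole libraries. Its log2 fold change was 3.23 ± 0.12 (adjusted p by edgeR = 5.34e-11), and SQSTM1, the cargo receptor p62, rose by 2.2 ± 0.11. ATG10 and ATG7, enzymes of the conjugation system, fell, with log2 fold changes of -2.68 and -1.03. Lysosome genes showed 24 of 46 raised and 14 lowered, and their median of 0.24 was -0.10 on plain totals. The hydrolase genes IDS and NEU1 rose by 2.14 and 1.84, and AGA and ARSB, also hydrolases, fell, with log2 fold changes of -2.62 and -2.3. Among reported itraconazole targets and mTOR pathway genes 10 of 21 rose and 6 fell, with a median of 0.17 that was -0.16 on plain totals. RHEB, the activator of mTOR complex 1, rose by 1.51, whereas RPTOR, its scaffold, and DEPTOR, its inhibitor, fell, with log2 fold changes of -1.3 and -2.54.

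Stress pathways held both rises and falls. The integrated stress response, in which ATF4 drives amino acid genes, showed 11 of 33 raised and 14 lowered, with a median of -0.09. NUPR1 and ATF3, stress-induced regulators, rose by 1.85 and 1.69, while CHAC1, which degrades glutathione, WARS1, the tryptophanyl-tRNA synthetase, and PSPH, of serine synthesis, fell, with log2 fold changes of -2.1, -2.04 and -1.98. Amino acid transporters showed 16 of 23 lowered and 4 raised, with a median of -0.55. SLC43A1, a carrier of large neutral amino acids, fell, with a log2 fold change of -2.82 ± 0.13, and SLC7A7 and SLC3A2, partners in one carrier, rose by 1.6 and 1.48. In the unfolded protein response 8 of 24 genes rose and 10 fell, 1 and 0 by at least 2-fold, whereas plain totals gave 1 raised, 16 lowered and a median of -0.44. Glycolysis genes rose in 14 of 24 cases and fell in 5, with a median of 0.40, and plain totals gave 9 raised, 10 lowered and a median of 0.067. SLC2A3, a glucose transporter gene, rose by 2.52 on the log2 scale from 16 counts over the controls and does not stand for glucose transporters as a whole. The kinase gene PDK1 fell by 1.37 on the same scale. Of 19 hypoxia-induced genes 10 rose and 6 fell, with 8 and 8 on plain totals. ADM, a vasodilator peptide, rose by 2.55, and EGLN3, a prolyl hydroxylase of the hypoxia factor, fell by 1.59 on the log2 scale.

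Among immune and inflammatory genes, NF-kB targets and MHC class I genes had more rises than falls under both scalings. ICAM1, an adhesion molecule that NF-kB induces, was barely present in the controls. ICAM1 stood at 1.94, 2.18, 2.08 and 2.35 CPM in the DMSO libraries and at 35.5, 30.4, 26.8 and 35.2 CPM in the itraconazole libraries. It rose by 3.9 ± 0.14 on the log2 scale (adjusted p by edgeR = 5e-11). Among 15 NF-kB targets 8 rose and 5 fell, 7 and 2 by at least 2-fold, with a median of 0.89, and RELB and BCL3 rose by 2.11 and 1.72. MHC class I genes rose in 10 of 15 cases and fell in 1, with a median of 0.89. HLA-B stood at 79.6, 67, 77.9 and 75.9 CPM in the DMSO libraries and at 384, 462, 440.3 and 396 CPM in the itraconazole libraries. HLA-B rose by 2.48 ± 0.081, HLA-E by 1.59 and the peptide transporter gene TAP1 by 1.48; the HLA genes are alike in sequence and their single values are uncertain. Of 25 interferon-stimulated genes 13 rose and 7 fell, with a median of 0.33, and plain totals gave 10 raised, 10 lowered and a median near 0. OASL rose by 3.14, HERC5 by 2.18 and IFITM1 by 1.99, and SAMD9 fell by 2.29 on the log2 scale, with -3.44 without itraconazole replicate 1. CD68, a lysosomal protein, and CD79A, of the B-cell receptor, rose by 2.39 and 2.37, while lysozyme, LYZ, fell by 1.57 on the log2 scale; PTPRC, CD3E and MS4A1 were at 0 in the same libraries.

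Growth signalling genes included single large changes. BTC stood at 27.5, 28.6, 24.5 and 27.4 CPM in the DMSO libraries and at 0.512, 0.528, 0.393 and 0.923 CPM in the itraconazole libraries. BTC, betacellulin, a ligand of the EGF receptor family, fell, with a log2 fold change of -5.48 ± 0.18 (adjusted p by edgeR = 2.66e-11), while the ligand genes EGF and AREG rose by 1.82 and 0.98. DUSP5, a nuclear ERK phosphatase, rose by 4.49 ± 0.29. Over 17 ERK feedback genes 10 rose and 6 fell, and the median of 0.28 was -0.04 on plain totals. BMP and TGF-beta genes showed 6 of 14 raised and 8 lowered, with 0 raised and 5 lowered by at least 2-fold, and ID1, SMAD6 and ID3, targets of BMP signals, fell, with log2 fold changes of -2.19, -1.82 and -1.59. In the Notch pathway 12 of 18 genes rose and 3 fell, but plain totals gave 4 raised, 5 lowered and a median of 0.028. NOTCH3 rose by 2.02 and the glycosyltransferase gene MFNG by 1.74, and its relative LFNG fell by 2.91 on the log2 scale. Of 13 genes of the BCL2 family 10 rose and 2 fell, with a median of 0.72. The pro-apoptotic genes BCL2L11 and BMF rose by 2.21 and 1.94, and BOK fell by 0.7 on the log2 scale. Among 18 tubulins and microtubule regulators 9 rose and 7 fell, with a median of 0.19 that was -0.14 on plain totals, and TPPP, which bundles microtubules, rose by 2.6. Of 16 alpha-arrestins and partners of MYC and MLX, 6 rose and 3 fell, with a median of 0.06 that was -0.27 on plain totals, and ARRDC3 rose by 2.42.

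Of 16 genes listed as splicing factors of the SR family, among them the CLK kinases named below, 10 fell and 5 rose. Their median was -0.49. SRSF1 stood at 346, 345, 347 and 324 CPM in the DMSO libraries and at 55, 25.9, 34.8 and 39.3 CPM in the itraconazole libraries. SRSF1 fell, with a log2 fold change of -3.12 ± 0.16 (adjusted p by edgeR = 5.82e-10), SRSF2 had -1.46 and SRSF7 had -1.4. The kinases that phosphorylate these proteins moved unequally, with CLK3 and CLK1 raised by 2.21 and 1.62 and CLK2 lowered, at -1.1. Long noncoding RNAs were lower on balance: 26.2% of 450 rose and 51.3% fell, with a median of -0.58. The 5 that fell most were led by PSMG3-AS1, with a log2 fold change of -5.4 ± 0.25, and HCG18 fell in every treated library. HCG18 stood at 45.7, 44.6, 46.1 and 45.8 CPM in the DMSO libraries and at 2.66, 3.57, 3.4 and 3.69 CPM in the itraconazole libraries. Its log2 fold change was -3.78 ± 0.11. Those that rose most included HOTAIRM1, of the HOXA cluster, at 3.95, and the snoRNA host genes SNHG18 and SNHG12, at 2.98 and 2.64. The counting by strand is not given in the sources used here, so antisense genes cannot be told apart from their partners. The snoRNA host genes, a family chosen after its values were seen, showed 12 of 18 raised and 5 lowered, with a median of 0.66. The zinc finger genes with a ZNF symbol, likewise chosen after their values were seen, showed 232 of 377 lowered and 80 raised, 142 and 14 by at least 2-fold, with a median of -0.70 that was -1.02 on plain totals.

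Other genes with the largest rises by the naming rule have varied roles. The keratin gene KRT12 rose by 5.57 (6.20 without DMSO replicate 1) from 13 counts over the controls, TNFSF9, the ligand of CD137, by 5.33, the small heat shock protein gene HSPB8 by 4.91, the channel gene PANX2 by 4.88 and the immune adaptor gene THEMIS2 by 5.38. TINCR, a transcript of keratinocyte differentiation, rose by 5.75, from 8 counts over the controls, and IFITM10 by 4.41. Among the largest falls were the calcium channel gene TRPV6, at -5.17, NIBAN1, a gene of stressed cells, at -4.95, POGLUT1, which glycosylates Notch, at -4.63, BORCS7, which positions lysosomes, at -4.32, and PYCR3, of proline synthesis, at -4.22. LCN2, lipocalin-2, lost the most CPM of all genes. LCN2 stood at 819, 778, 562 and 857 CPM in the DMSO libraries and at 43.4, 46.5, 51.5 and 46.4 CPM in the itraconazole libraries. It fell, with a log2 fold change of -4.01 ± 0.13.

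A few genes were present in one group and at 0 counts throughout the other. OTC, the ornithine transcarbamylase of the urea cycle, had 18, 18, 14 and 19 counts in the control libraries and 0 in each treated library. MALRD1, which bears on bile acid metabolism, had 14, 13, 21 and 21 counts and 0. Against a floor of 3 counts over the treated group, OTC was at least 17.1-fold lower and MALRD1 at least 17.0-fold lower. The noncoding gene USP46-DT, at least 17.4-fold lower, and the pseudogene TOB2P1, at least 11.7-fold lower, were the others with 0 counts in the treated libraries. The noncoding gene ENSG00000259005 had 11, 19, 15 and 14 counts in the treated libraries and 0 in each control, at least 27.3-fold higher. These floors cover counting error only.

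The difference from HT55 was tested as an interaction of line and treatment on all 16 libraries, and 53.9% of 13249 genes passed. The genes named here changed in SW948, did not pass in HT55, and had at least 10 CPM in each group. CFTR had a log2 fold change of 0.025 in HT55, where it went from 21.6 to 22 CPM, and the interaction was -3.44 (adjusted p by edgeR = 5.36e-09). EIF4EBP2, a repressor of translation that mTOR controls, was a second case. EIF4EBP2 stood at 194, 224, 203 and 197 CPM in the DMSO libraries and at 37.3, 30.6, 38.2 and 27.2 CPM in the itraconazole libraries. Its log2 fold change was -2.61 ± 0.099 in SW948 and 0.12 in HT55, with an interaction of -2.71 (adjusted p by edgeR = 4.36e-11). CADPS, of vesicle release, DBNL, an actin-binding adaptor, and UTP14C, of ribosome biogenesis, had interactions of -2.75, -2.73 and -2.45. In the upward direction GTF2IRD1, a transcription factor, had 1.9 in SW948 and -0.072 in HT55, an interaction of 2.0 (adjusted p by edgeR = 8.05e-10), and SCML1, a Polycomb-related gene, had an interaction of 2.34. FOSL1, of the AP-1 factor, the perlecan gene HSPG2 and the antiproliferative gene BTG3 had 1.95, 1.89 and 1.89. Members of the groups above also differed between the lines. MT2A had a value of -0.73 in HT55, with an interaction of 6.01 (adjusted p by edgeR = 3.41e-07), INSIG1 one of 1.83, with 4.37 (adjusted p by edgeR = 7.8e-10), and LYZ one of 1.39, with -2.94 (adjusted p by edgeR = 5.73e-07).

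**Figure D5:**
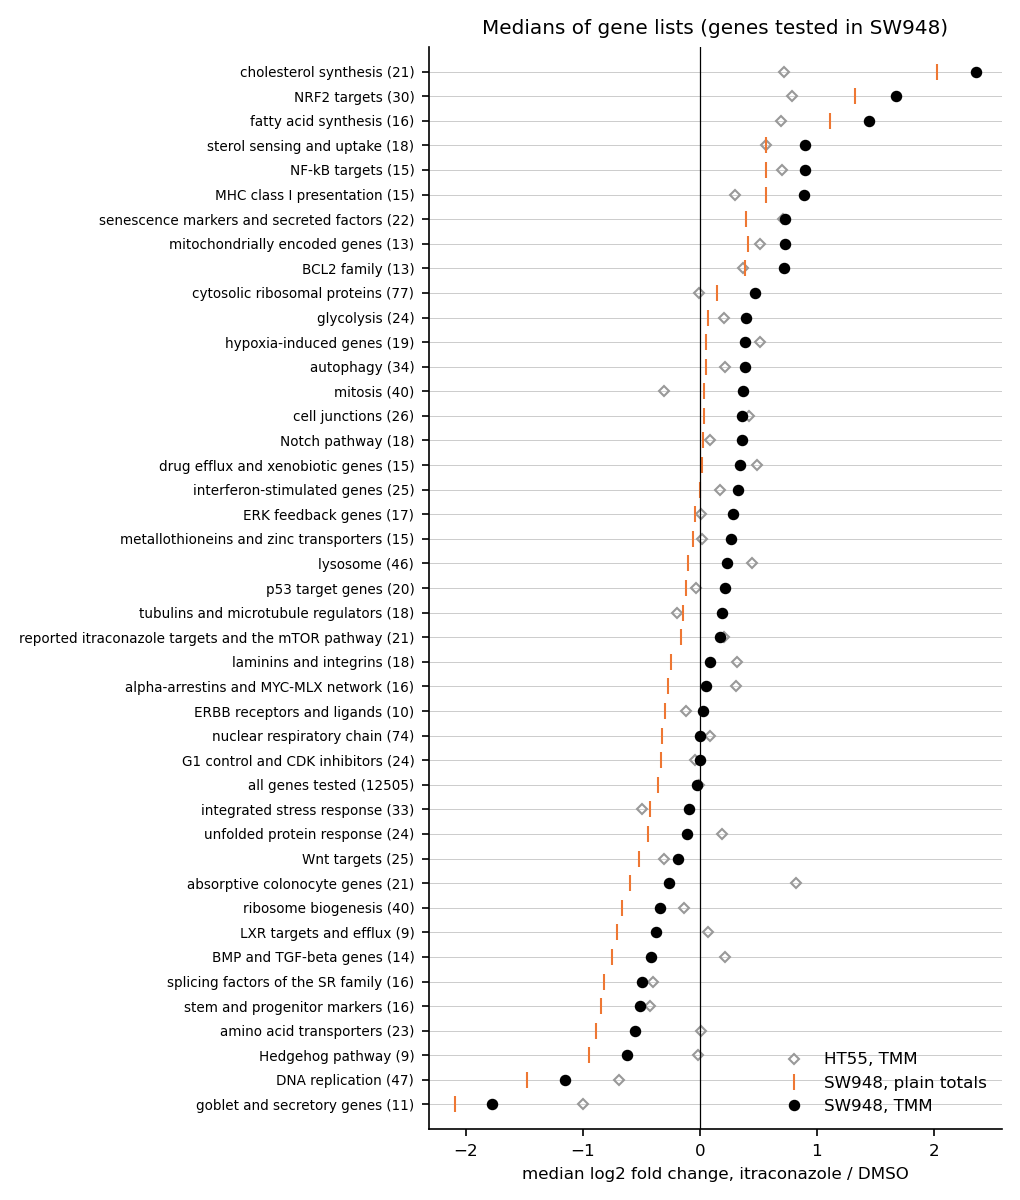
Median log2 fold change (itraconazole over DMSO) of each gene group, over its members tested in SW948 for SW948 and over those tested in HT55 for HT55, with the number of members tested in SW948 in brackets. Black points are SW948 with TMM factors, orange bars SW948 on plain library totals, and open diamonds HT55; cholesterol synthesis is at 2.36, 2.02 and 0.72 on these scales, and cytosolic ribosomal proteins at 0.48, 0.14 and -0.01.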

How the data were processed

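RNA was measured by sequencing in 16 libraries, and the 8 SW948 libraries were used, with the 8 of HT55 only for the tests between lines. The authors deposited 1 file of raw counts per gene for each library, with 54127 Ensembl identifiers. Per the submitters' processing notes, which give no versions, TopHat, HTSeq and DESeq were used on hg19. The 5 closing lines of each file, which total the reads outside genes, were left out of library sizes and tests. HTSeq set aside reads with more than 1 alignment, so genes with near-identical copies lose counts. The strand setting is not given in the sources used here.

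Genes were tested by quasi-likelihood in edgeR 4.0.16 (R 4.3.3) with TMM factors, filterByExpr and Benjamini-Hochberg adjustment over all genes tested. Genes with an adjusted p under 0.05 were called. The SE of a fold change was derived from the test, as the absolute log2 fold change divided by the square root of the F statistic. The line-by-drug interaction was fitted on all 16 libraries. Genes below the filter and library measures were compared by two-sided exact permutation over 70 assignments. The reads carry no molecular identifiers, so the spread between libraries, and not the counts, gives the error. The edgeR fit was tested on simulated counts in which a small set of genes changed, equally upward and downward. That test does not cover data in which most genes change, as here.

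Symbols, types and coordinates came from GENCODE 44 mapped to GRCh37, with a symbol for 47098 identifiers that hold 97.8% of the counts. Promoters are RefSeq, GRCh38.p14, so their coordinates are not those of the genes. Of 21 cholesterol, 47 replication, 40 mitosis and 30 NRF2 genes, 16, 39, 33 and 21 had a promoter in the table.

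Members and lists were chosen with earlier results of these data known, and lists were written from general knowledge. Of 1118 listed genes 979 were tested, 128 were below the filter and 11 symbols were not analysed here. Named genes were the 15 protein-coding genes that rose and the 15 that fell most (at least 10 CPM in the higher group, no overlap), the 5 long noncoding RNAs each way, the 5 largest gains and losses in CPM, the 3 largest changes each way in each list with members named for their role, genes at 0 counts in one group, and the 5 each way with the largest interaction and no call in HT55. Some genes that this rule names are not reported here. Alternatives were the Wald test of DESeq2 1.42.0, its size factors in edgeR, plain library totals, other filters and thresholds, a replicate block, GC and length offsets, 1 fit on 16 libraries, removal of the 20 most abundant and the mitochondrial genes, a prior count of 0.5 in list medians and leaving out each library. The same fits were added for the families after their values were seen.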

Additional observations from a re-analysis of the deposited data

Results flagged for a closer look

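Among the named genes, list shares and library measures of SW948, 770 groups of 4 libraries were checked for a library far from the other 3, and 46 had one. Chance gives about 1 in 20 such groups. In brackets is the median of the other 3 libraries, in the same unit. DMSO replicate 1 stood above the other 3 DMSO libraries for ENO2 at 3.8 CPM (against 2.67). DMSO replicate 1 stood below the other 3 DMSO libraries for ABCB1 at 168 CPM (against 181). DMSO replicate 2 stood above the other 3 DMSO libraries for SLC30A1 at 103 CPM (against 86.1). DMSO replicate 2 stood below the other 3 DMSO libraries for NDUFA11 at 15.2 CPM (against 18.6) and CLK2 at 21.3 CPM (against 23). DMSO replicate 3 stood above the other 3 DMSO libraries for INSIG1 at 52.2 CPM (against 34.6), AKR1C1 at 12.1 CPM (against 4.86), E2F1 at 30.5 CPM (against 20.9), SDF2L1 at 14.6 CPM (against 12.1), AKR1C2 at 11.6 CPM (against 5.26), SLC7A7 at 7.4 CPM (against 4.53) and MT1E at 0.0902 CPM (against 0). DMSO replicate 3 stood above the other 3 DMSO libraries also for CDX2 at 236 CPM (against 206), FTH1 at 2365 CPM (against 2221), FDFT1 at 276 CPM (against 238), STARD4 at 23.2 CPM (against 19.2) and SREBF2 at 290.1 CPM (against 256). DMSO replicate 3 stood below the other 3 DMSO libraries for TAF1D at 78 CPM (against 99.6), ARRDC3 at 1.71 CPM (against 5.57) and ARRDC4 at 179 CPM (against 216). DMSO replicate 4 stood above the other 3 DMSO libraries for NDUFC2 at 33.9 CPM (against 31.8). DMSO replicate 4 stood below the other 3 DMSO libraries for LRRC31 at 23.5 CPM (against 29.3), SRSF1 at 324 CPM (against 346) and IFT22 at 23.7 CPM (against 25.7). Itraconazole replicate 1 stood above the other 3 itraconazole libraries for STK36 at 5.53 CPM (against 3.14), POLR1A at 41 CPM (against 25.4), MGA at 27.7 CPM (against 19.3), SMAD6 at 2.87 CPM (against 1.5), SAMD9 at 0.717 CPM (against 0.131) and SLC38A10 at 32.1 CPM (against 23.4). Itraconazole replicate 1 stood below the other 3 itraconazole libraries for SNHG18 at 79.5 CPM (against 110.4), RPS13 at 1005 CPM (against 1164), IDI1 at 332 CPM (against 392) and SNHG1 at 374 CPM (against 474). Itraconazole replicate 2 stood below the other 3 itraconazole libraries for CDC20 at 118 CPM (against 133) and PFKL at 53.5 CPM (against 65.1). Itraconazole replicate 4 stood below the other 3 itraconazole libraries for NDUFC2 at 18 CPM (against 19.5). Of the shares of each library, cholesterol synthesis took 0.623% in itraconazole replicate 1 (against 0.717%), sterol sensing and uptake took 0.14% in DMSO replicate 3 (against 0.128%) and Hedgehog pathway took 0.023% in DMSO replicate 3 (against 0.0202%). In addition, absorptive colonocyte genes took 0.324% in DMSO replicate 3 (against 0.314%), integrated stress response took 0.99% in DMSO replicate 4 (against 0.976%) and NRF2 targets took 0.721% in DMSO replicate 3 (against 0.674%). Finally, BCL2 family took 0.0932% in DMSO replicate 3 (against 0.089%), tubulins and microtubule regulators took 0.259% in itraconazole replicate 3 (against 0.249%) and reads with more than 1 alignment took 25.3% in itraconazole replicate 1 (against 26.2%).

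The response to itraconazole differed between SW948 and HT55 in the edgeR interaction test for 19 genes, chosen by their interaction, changed in opposite directions or compared between the lines in the text above. The values are SW948 minus HT55 on the log2 scale. SW948 was the more positive for SCML1 at 2.34, GTF2IRD1 at 2.0, FOSL1 at 1.95, HSPG2 at 1.89, BTG3 at 1.89, PTK7 at 0.99, CCNB1 at 0.83, INSIG1 at 4.37, MT2A at 6.01, PTTG1 at 1.58, CDC20 at 1.39 and CCNA2 at 1.65. SW948 was the more negative for CFTR at -3.44, CADPS at -2.75, DBNL at -2.73, EIF4EBP2 at -2.71, UTP14C at -2.45, PTCH1 at -1.09 and LYZ at -2.94. The adjusted p ran from 4.36e-11 to 0.00137. The values of PTK7 and CCNB1 in SW948 alone were 0.022 and 0.13 on plain totals and did not pass there.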

How the results depend on the processing

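On plain library totals 3145 genes were raised, and the medians of 11 lists changed sign, to -0.11 for p53 target genes, -0.098 for lysosome, -0.27 for alpha-arrestins, -0.044 for ERK feedback, -0.24 for laminins and integrins, -0.14 for tubulins, -0.16 for itraconazole targets and mTOR, -0.060 for metallothioneins, -0.30 for ERBB receptors and ligands, -0.33 for the nuclear respiratory chain and -0.26 for colon epithelium markers. LMNB1, SUFU, KEAP1 and NFE2L2, none of them called with TMM scaling, also turned, to -0.25, -0.25, -0.17 and -0.26, with LMNB1 and NFE2L2 then called. Asking for a change of at least 1 on the log2 scale left 4001 genes, 1657 raised and 2344 lowered. The median of all genes tested was 0.0077 in the fit on all 16 libraries, against -0.02. With each library left out in turn the median of the absorptive genes ran from -0.28 to 0.12, the highest without DMSO replicate 3, and SUFU from -0.019 to 0.13, the lowest without itraconazole replicate 1. The cause was not tested.

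Leaving out each library in turn gave from 9686 to 10294 changed genes and from 6772 to 7393 interactions. With the replicate block 9973 genes changed and 7037 had an interaction, and of 337 named genes 335 kept their side of the threshold. Same-numbered libraries had correlations of deviations of 0.035, 0.0023, 0.134 and 0.056, so the numbers were not read as pairs. Apart from those named, no alternative that was run moved the counts of called genes by more than 1.5 times, and 322 named genes kept direction and side on plain totals. At this depth genes with under 1 CPM had few counts, so their fold changes are imprecise.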
